A study of Mus musculus with 6 samples.

Results

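Cluster 3 is one of the cell clusters that the authors recorded for every cell in their deposited table, and its cells stand out by the chemokine transcripts Ccl3 and Ccl4. Its members were taken by that cluster number alone, which gave 1502 of the 27258 cells. Of these, 375 were knockout cells, with 61 in library D, 186 in library E and 128 in library F. The other 1127 were wild-type cells, with 349 in library A, 383 in library B and 395 in library C. The comparison cells, called the rest, were the 25732 cells of clusters 0, 1, 2, 4 and 5 of the same 6 libraries, and the 24 cells of cluster 6 were left out. Cluster sizes were not compared between genotypes.

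The study profiled single T cells of Cblb-/- (KO, n = 3) and wild-type control (WT, n = 3) mice with a droplet kit that reads the 3' ends of transcripts. In both genotypes, naive CD4+ T cells were isolated from spleen and cultured for 48 h with hTGFβ at 3 ng/ml, IL-4 at 20 ng/ml and anti-IFNγ antibody at 20 µg/ml, which turns naive cells into Th9 cells, and were then purified on CD4 beads. The labels name neither the knockout allele nor the age of the mice, and do not say whether the 6 samples were cultured separately, so p-values measure the spread between libraries, which may be technical. The table names libraries by sequencing index, so each is tied to its genotype and the letters A to F only name it.

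CCL3 and CCL4 are small secreted chemokines of activated T cells, macrophages and natural killer cells. They draw other immune cells to sites of inflammation, and T cells make them within hours of antigen receptor stimulation. CBL-B is a ubiquitin ligase that brakes signalling from the T cell receptor, and T cells without it respond to weaker stimulation and need less CD28 help. Th9 cells are helper T cells named for their cytokine interleukin 9.

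Raw depth per cell lay close in cluster 3 and the rest. The median raw count of molecules per cluster 3 cell was 38194, 32500 and 43019 in KO libraries D, E and F, and 36720, 38378 and 37445 in WT libraries A, B and C, against 35654 to 39662 in the rest, and the median mitochondrial share of cluster 3 cells lay between 4.44% and 4.96%. In library F, 13.3% of cluster 3 cells exceeded 2 times the median raw count of the series, against 2.69% to 8.09% in the other 5 libraries. Doublets were not called, and their part in any result was not tested. Of the cluster 3 cells, 6 had a barcode that also occurred in another library, and 0 shared one with a cluster 3 cell of another library. On the first principal component of the cluster 3 sums, which held 59.3% of the variance, KO libraries D, E and F stood at 20.9, 1.01 and 22.5, and WT libraries A, B and C at -14.6, -15.4 and -14.4. Library E thus stood apart from both other KO libraries, and results that turn on it are given without it as well. Levels below, in ppm, are summed corrected counts of a library's cluster 3 cells or of its rest cells, scaled to a total of 1000000, and differences are on the log2(ppm + 1) scale.

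Both chemokines that name the cluster were many times higher in cluster 3 than in the rest of every library. Because the authors built the clusters from the expression of these genes, this and every other contrast of cluster 3 with the rest is a description, with no test. Ccl4 stood at 1252, 1031 and 1388 ppm in cluster 3 of KO libraries D, E and F, and at 810.1, 865 and 843 ppm in WT libraries A, B and C. In the rest it stood at 38.8, 48.8 and 38.2 ppm in D, E and F, and at 58.2, 50.6 and 41.3 ppm in A, B and C. The mean difference over the 6 libraries was 4.44 ± 0.53 (SD, n = 6) on the log2 scale, and the lowest cluster 3 value lay far above the highest value of the rest. Ccl3 stood at 362, 307 and 595 ppm in cluster 3 of D, E and F, and at 127, 122 and 114 ppm in that of A, B and C. In the rest it was between 4.10 and 11.8 ppm in all 6 libraries. The mean difference of Ccl3 was 4.81 ± 0.76 (SD, n = 6), and all KO values in cluster 3 lay above all WT values. In single cells, 100% of cluster 3 cells in 5 libraries and 99.2% in library F held Ccl4, while 31.0% to 39.7% of the rest did. Among the other clusters, cluster 4 came next in Ccl4, at 159 ± 53.8 ppm in KO and 163 ± 29.8 ppm in WT (SD, n = 3 each).

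**Figure D1:**
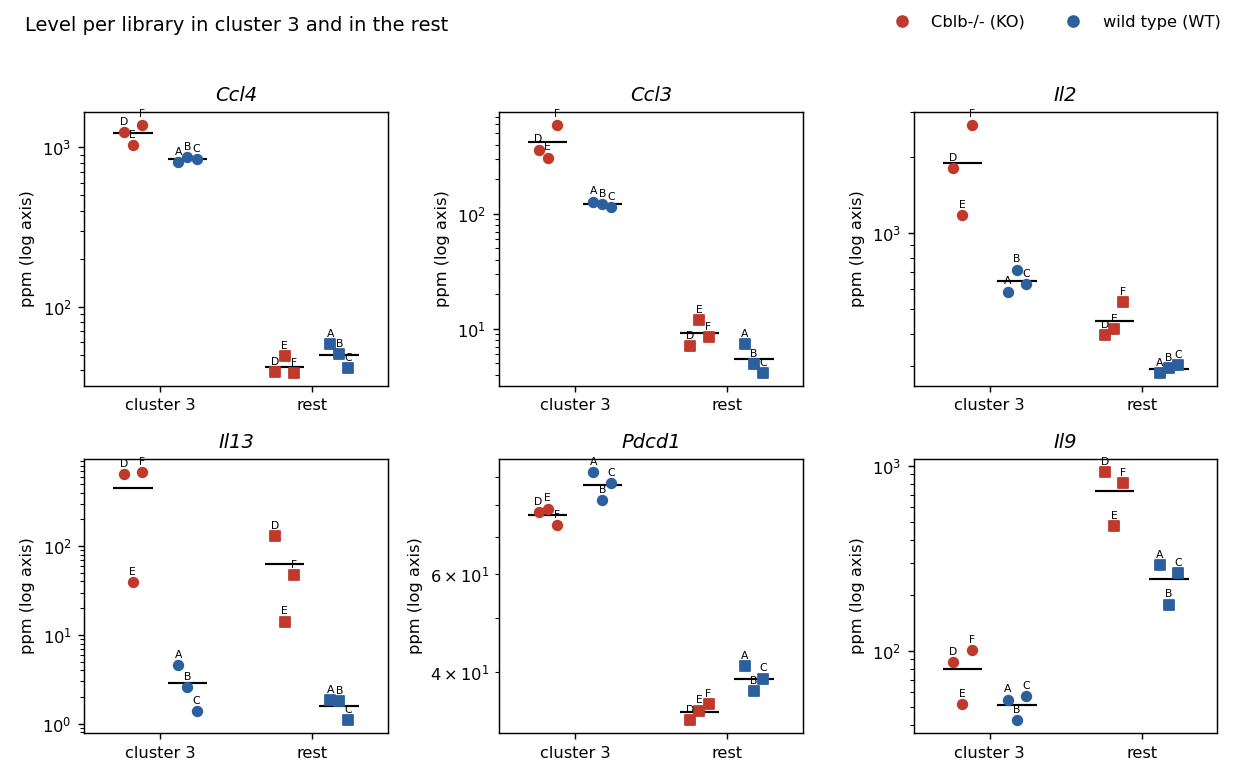
Levels of Ccl4, Ccl3, Il2, Il13, Pdcd1 and Il9 in cluster 3 and in the rest, in ppm on a log axis, with 1 point per library and a bar at the mean of the 3 libraries of a genotype. Ccl4 and Ccl3 lie far higher in cluster 3 than in the rest in all 6 libraries, Pdcd1 about 2-fold higher, and Il9 lower. Il13 lies above 39 ppm in cluster 3 of the KO libraries and below 5 ppm in that of the WT libraries.

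The 2 chemokine genes lie close together. In mm10, Ccl3 lies on chromosome 11 from 83647844 to 83649355 on the minus strand, and Ccl4 from 83662584 to 83664683 on the plus strand, with 13228 bases between them. Also on chromosome 11 are Il13 (53631324 to 53634702), Csf2 (54247271 to 54249667) and Il3 (54265303 to 54267277), all on the minus strand, and Csf2 and Il3 are 15635 bases apart. Ccl3, Il13 and Il3 were higher in KO than in WT cells of cluster 3, as described below, so the 250 bases before the starts that RefSeq gives on GRCm38.p6 are shown. For Ccl3 and Il3 these starts lie a few bases upstream of the gene ends above. Csf2 is left out, because its RefSeq start lies further away. The stretches were read on the minus strand, 5' to 3', at chr11:83649379-83649628, chr11:53634703-53634952 and chr11:54267280-54267529. Capitals mark GGAAA and its reverse complement TTTCC, the core that NFAT factors of T cell receptor signalling bind.
Ccl3: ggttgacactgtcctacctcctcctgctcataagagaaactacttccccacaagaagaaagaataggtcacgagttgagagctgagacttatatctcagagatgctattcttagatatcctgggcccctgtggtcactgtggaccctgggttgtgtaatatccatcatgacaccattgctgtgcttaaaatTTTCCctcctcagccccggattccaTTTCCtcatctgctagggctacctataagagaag
Il13: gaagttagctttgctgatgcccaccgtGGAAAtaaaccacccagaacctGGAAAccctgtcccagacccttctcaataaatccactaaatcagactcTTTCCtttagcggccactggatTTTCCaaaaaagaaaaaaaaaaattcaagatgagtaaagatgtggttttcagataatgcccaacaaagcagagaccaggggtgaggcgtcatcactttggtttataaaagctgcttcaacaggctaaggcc
Il3: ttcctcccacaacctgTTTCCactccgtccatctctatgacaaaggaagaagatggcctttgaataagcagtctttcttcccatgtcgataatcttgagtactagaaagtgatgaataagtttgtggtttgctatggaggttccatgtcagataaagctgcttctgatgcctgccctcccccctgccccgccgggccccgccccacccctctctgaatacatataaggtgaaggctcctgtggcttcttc
The core occurred at 2 places in the Ccl3 stretch, 4 in that of Il13 and 1 in that of Il3. Of all 32851 such stretches searched, 55.6% held it at least once. The AP-1 motif TGANTCA was in none of the 3 stretches and in 6.75% of all of them. Both strands were searched, and a match is a description of the letters only.

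After both chemokines, the genes that were highest in cluster 3 relative to the rest included those of cytokines, chemokines and surface ligands. They were Cyr61 (mean log2 difference 2.13), Il3 (2.08), Ccl1 (1.89), Xcl1 (1.85), Il2 (1.57), Csf2 (1.53), Il13 (1.51), Cd40lg (1.38), Fasl (1.28), Pdcd1 (1.15), Igfbp7 (1.15), Wisp1 (1.14) and Rgs2 (1.11), each higher in 6 of 6 libraries. Of these, Cyr61, Il3, Csf2 and Il13 averaged only 2.50, 0.718, 3.01 and 2.84 ppm in WT cells of cluster 3. They passed the minimum mean of 5 ppm through the KO libraries, so their WT differences are descriptions near the floor. The Il3 of cluster 3 summed to 17, 3 and 10 corrected counts in A, B and C. A single cell held 61.7% of the Il13 of A and 81.6% of that of B. Xcl1 encodes lymphotactin, a chemokine for cross-presenting dendritic cells, Ccl1 the ligand of CCR8, Cd40lg the ligand that licenses B cells and dendritic cells, and Fasl the ligand of the death receptor FAS. Over all 8436 genes compared, 1068 (12.7%) were higher and 1565 (18.6%) lower in cluster 3 in all 6 libraries. Some of these genes were as high or higher in cluster 4 or, for Csf2 and Il13 in some libraries, in cluster 2. Cyr61 averaged 2.98 ppm in WT cells of cluster 4, against 2.50 ppm in cluster 3, but 11.5 against 35.7 ppm in KO cells. Ccl1 stood at 15.7 ppm in cluster 4 of E, against 5.56 ppm in cluster 3. It also stood at 15.8 ppm in cluster 5 of A, against 15.4 ppm in cluster 3, but was highest in cluster 3 in D, F, B and C. Igfbp7 averaged 61.2 ppm in KO and 109 ppm in WT cells of cluster 4, against 46.6 and 65.4 ppm in cluster 3. Wisp1 averaged 9.30 and 10.3 ppm in cluster 4, against 9.56 and 6.29 ppm in cluster 3, and Rgs2 30.1 and 26.2 ppm, against 30.3 and 23.6 ppm. Fasl averaged 18.7 ppm in KO and 13.3 ppm in WT cells of cluster 4, against 25.0 and 11.1 ppm in cluster 3. Csf2 was higher in cluster 2 than in cluster 3 in E (43.7 against 24.3 ppm), B (1.09 against 1.03 ppm) and C (5.47 against 1.73 ppm), but not in D, F and A.

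Of the given markers, Pdcd1, which encodes the inhibitory receptor PD-1, was the steadiest. Its level was 77.8, 78.9 and 73.7 ppm in cluster 3 of D, E and F, and 92.0, 81.7 and 87.8 ppm in that of A, B and C. The rest stood between 32.6 and 40.9 ppm, below every cluster 3 value, and the difference was 1.15 ± 0.06 (SD, n = 6). Cluster 4 alone came closer, at 58.5 to 62.7 ppm in KO and 61.7 to 81.3 ppm in WT, where 2 libraries lay inside the range of cluster 3. Xcl1, above the rest in 6 of 6 libraries, was highest in library F, at 20.6, 22.7 and 81.6 ppm in D, E and F, and 24.4, 17.8 and 15.7 ppm in A, B and C. Single cells carried much of it, since 1 cell held 65.7% of the summed Xcl1 of cluster 3 in library A and 1 cell 69.2% in library B. Il13, an effector cytokine of type 2 immunity, was highest in cluster 3 only in KO libraries D and F, and is described with the genotypes. In E it stood at 39.1 ppm in cluster 3 and at 52.9 ppm in cluster 2. In A, B and C it stood at 4.53, 2.60 and 1.398 ppm in cluster 3 and at 12.9, 21.6 and 3.90 ppm in cluster 2. Any Il13 was held by 34.4%, 9.68% and 46.9% of cluster 3 cells of D, E and F, against 34.2%, 8.32% and 27.8% of the rest.

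Ifng did not hold as a marker of the cluster. It stood at 0, 7.13 and 361 ppm in cluster 3 of D, E and F, and at 0.377, 0 and 2.46 ppm in that of A, B and C, and it was higher than in the rest in 3 of 6 libraries. A single cell of library F carried 1588 of the 1773 corrected counts of that library (89.6%), and 1 cell of library E carried 46 of 50. The library F cell also held Ccl3 (58), Ccl4 (45), Cd4 (4), Cd3e (9) and Trbc2 (35), and 0 of Cd8a, Gzma, Nkg7 and Trdc. Only 1.84% of KO and 0.444% of WT cluster 3 cells held any Ifng, as means over libraries.

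The genes that were lowest in cluster 3 relative to the rest included those that name the other clusters. Il9 had the largest deficit, with a mean difference of -2.70 ± 0.56 (SD, n = 6). It stood at 86.9, 51.5 and 100.7 ppm in cluster 3 of D, E and F, and at 54.6, 42.1 and 57.0 ppm in A, B and C. In the rest it stood at 931, 475 and 806 ppm in D, E and F, and at 292, 178 and 263 ppm in A, B and C. Cluster 3 was below the rest in all 6 libraries, and most of the Il9 of the rest was in clusters 2 and 5. Against clusters 0 and 4, which averaged 60.5 and 41.7 ppm in KO and 18.1 and 15.2 ppm in WT, Il9 was not lower in cluster 3, at 79.7 ppm in KO and 51.3 ppm in WT. Next came Akr1c18 (-2.08), a progesterone-inactivating aldo-keto reductase, the kinase gene Sgk1 (-1.78), Ctla2a (-1.61), Gatm (-1.51), the Ikaros factor Ikzf4 (-1.49), Ccl20 (-1.32), Gpr146 (-1.30), the quiescence factor Klf2 (-1.18) and Batf3 (-1.09). With clusters 0, 1, 2, 4 and 5 weighted equally, the deficits of Il9, Akr1c18 and Ccl20 were -1.59, -1.09 and -0.65. Ctla2a and Gatm averaged lowest in cluster 3 in both genotypes, but Sgk1, Ikzf4, Gpr146 and Batf3 averaged lower in cluster 4. Akr1c18 averaged 6.93 ppm in KO and 6.77 ppm in WT cells of cluster 3. In clusters 0, 1, 2 and 4 it averaged 4.10 to 5.80 ppm in KO and 4.50 to 9.49 ppm in WT. In KO, Ccl20 averaged 27.6 ppm in cluster 3, against 7.48 to 18.6 ppm in clusters 0, 1 and 2.

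**Figure D2:**
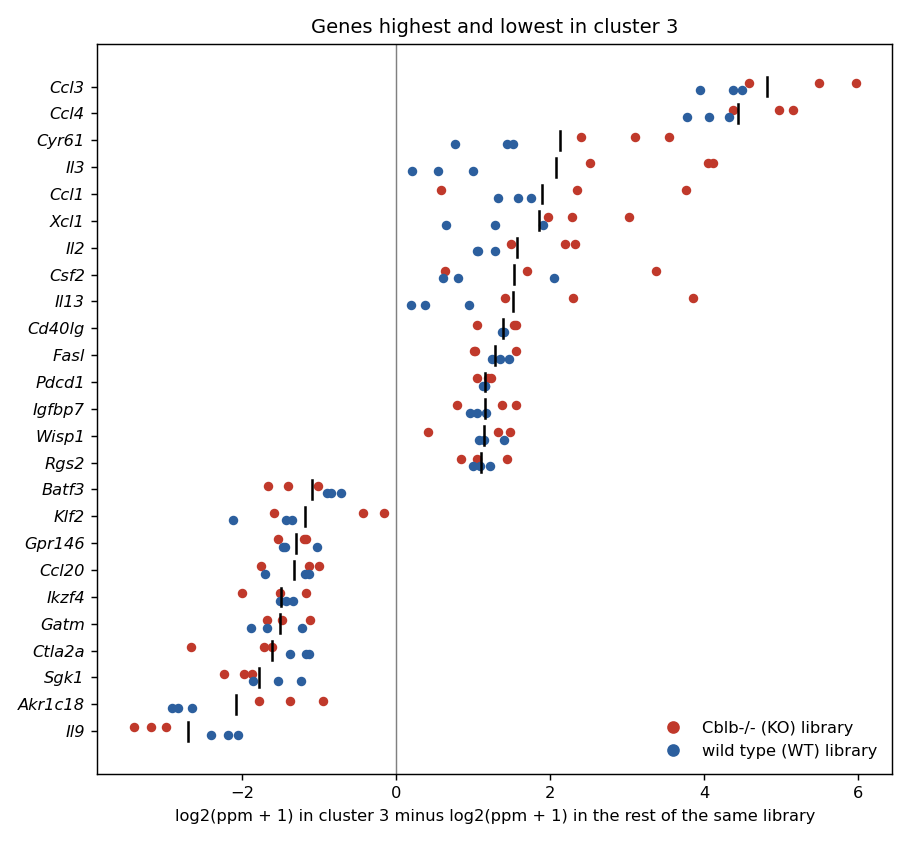
Difference between cluster 3 and the rest of the same library in log2(ppm + 1), for the 15 genes with the largest and the 10 with the smallest mean difference. Each point is 1 library, KO above WT within a gene, and the bar is the mean of 6. Ccl3 and Ccl4 lie above 3.7 in every library, while Il13, Il3 and Cyr61 spread widely, with the KO libraries further right.

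The gene lists were counted against the 12.7% of all genes that were higher and the 18.6% that were lower in all 6 libraries. Among immediate early and activation factors, which T cells induce on receptor stimulation, 19 of 27 compared genes were higher in cluster 3 in all 6 libraries and 2 lower, with Spry1 (0.97) and Nr4a1 (0.90) the highest and Dusp10 (-0.57) the lowest of those lower throughout. The median of the list was 0.33, against -0.03 over all genes. Of 11 TNF family ligands 6 were higher and 0 lower (median 0.74), and of 10 inhibitory receptors and related genes 7 were higher and 0 lower (median 0.34), led by Pdcd1 and Cd274 (0.58), which encodes PD-L1. Endoplasmic reticulum chaperones and other unfolded protein response genes were higher in 9 of 18 and lower in 0 (median 0.14), with Hspa5 (0.37) and Dnajc3 (0.32) on top, and MYC and ribosome biogenesis genes in 15 and 0 of 25 (median 0.10). Cytokine receptors ran the other way, with 1 of 14 higher and 9 lower (median -0.24), among them the IL-4 receptor gene Il4ra (-1.003) and the interferon-gamma receptor gene Ifngr2 (-0.48). Genes of G2 and mitosis were lower in 20 of 24 and higher in 0 (median -0.34), with Nusap1 (-0.64) and Cenpf (-0.48) lowest, while S phase genes were higher in 7 of 26 and lower in 1 (median 0.08). Of 10 genes that name the other clusters, 9 were lower and only Il2 higher. By the root mean square of log2 differences over 8436 genes, cluster 3 was nearest to cluster 0 (mean 0.256 over libraries), followed by cluster 4 (0.299), clusters 5 and 1 (both 0.323) and cluster 2 (0.357).

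Within the cluster, Ccl4 was spread over nearly all cells and Ccl3 over fewer. At a corrected count of at least 10, Ccl4 reached 96.3% ± 1.55 of KO and 91.3% ± 0.16 of WT cells (SD, n = 3 each), and Ccl3 42.3% ± 10.2 and 14.3% ± 2.03. In the rest, 3.99% of KO and 4.62% of WT cells reached 10 for Ccl4, and 0.520% and 0.316% for Ccl3. Of the cells that reached 10 for Ccl3, between 95.1% and 100% per library also did so for Ccl4, whereas of the Ccl4 cells between 32.95% and 53.6% in KO and between 13.9% and 18.2% in WT reached 10 for Ccl3. The rank correlation of both chemokines across the cells of a library was 0.47, 0.47 and 0.54 in D, E and F (61, 186 and 128 cells), and 0.43, 0.44 and 0.48 in A, B and C (349, 383 and 395 cells), and these cells share a library. The top 10% of cells held between 48.7% and 53.8% of a library's Ccl3 in the cluster, and between 30.0% and 34.6% of its Ccl4. Cluster 3 held 48.2%, 46.7% and 63.1% of all Ccl3 of D, E and F, and 63.0%, 70.8% and 72.5% of that of A, B and C. Of all Ccl4 it held 36.9%, 41.6% and 47.0% in D, E and F, and 57.7%, 62.5% and 66.0% in A, B and C.

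Il13 and Csf2 came from a smaller part of the cluster. The KO cells that reached 10 for Il13 were 13 in D, 5 in E and 29 in F. Of these, between 60% and 69.2% per library also reached 10 for Ccl3, and between 80% and 93.1% for Il2. Of all cluster 3 cells of D, E and F, 41.0%, 32.8% and 53.1% reached 10 for Ccl3, and 73.8%, 68.3% and 85.2% for Il2. Of the KO cells at 10 or more for Csf2, 5 of 7 in D and 12 of 16 in F, but 0 of 5 in E, also reached 10 for Il13. Il9 was seldom this high in the cluster, with 7.78% ± 3.38 of KO and 6.46% ± 1.32 of WT cells (SD, n = 3 each), against 25.2% of KO and 13.97% of WT cells of the rest.

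**Figure D3:**
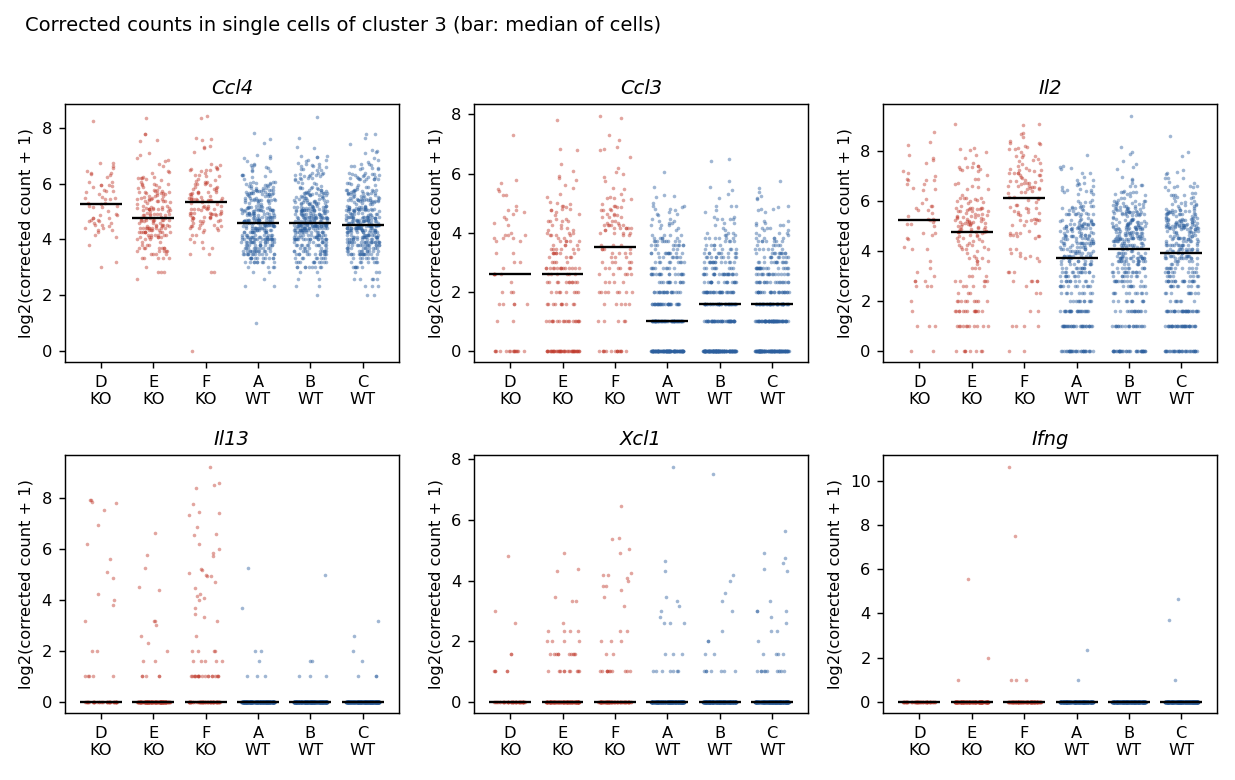
Corrected counts of 6 genes in single cells of cluster 3 on a log2(corrected count + 1) scale, by library, with KO libraries D, E and F on the left, WT libraries A, B and C on the right, and a bar at the median of the cells. Ccl4 is present in nearly every cell, Ccl3 has a median of 5, 5 and 10.5 in D, E and F and of 1, 2 and 2 in A, B and C, and for Il13, Xcl1 and Ifng the median cell is at 0 in every library.

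Between the genotypes, KO cells of cluster 3 held more chemokine and cytokine transcripts than WT cells of the same cluster. Ccl3, Ccl4, Il2, Il13, Csf2 and Il3 were all higher in KO, while Pdcd1, Xcl1, Ifng and Il9 did not pass the test. The comparison asks how the chemokine cells of the 2 genotypes differ. Over the whole table, 704 of 8393 tested genes, 8.39%, passed an adjusted p of 0.05 in limma with Benjamini-Hochberg adjustment. Of these, 381 were higher in KO (4.54%) and 323 lower (3.85%), and of those changed at least 2-fold, 104 were higher (1.24%) and 18 lower (0.214%). An unadjusted p below 0.05 was reached by 23.8%.

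The number of calls turned on single libraries. Without KO library E 899 genes were called higher and 666 lower, and 699 of the 704 were among them. Without KO library D it was 227 and 203, and without KO library F 246 were called higher. Without WT library A it was 125 and 57, without B 142 and 80, and without C 131 and 55. The KO and WT libraries did not overlap in 30.7% of tested genes. Which cells entered the cluster also depended on these genes, and the part of that in the differences was not tested.

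The targeted gene was lower but present. Cblb, on chromosome 16 from 52031225 to 52208048, stood at 15.9, 18.7 and 23.0 ppm in cluster 3 of D, E and F, against 33.3, 31.3 and 32.01 ppm in A, B and C. The groups did not overlap, and the log2 difference was -0.73 (SE 0.13, limma adjusted p = 0.00918, and 0.0618 without library A and 0.0518 without C). The deleted part of the gene is not given in the sources used here, and 3' reads outside a deletion do not check it. In the rest the difference was -0.85.

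Both chemokine genes were higher in KO than in WT cells of cluster 3, a comparison that covers only the cells that entered the cluster. Ccl3, at 421 ± 153 ppm in KO and 121 ± 6.86 ppm in WT (SD, n = 3 each), was higher by 1.74 on the log2 scale (SE 0.19, limma adjusted p = 0.0016), a 3.33-fold difference. Ccl4, at 1223 ± 180.5 ppm in KO and 839 ± 27.6 ppm in WT, was higher by 0.53 (SE 0.09, limma adjusted p = 0.0086). All 3 KO libraries lay above all 3 WT libraries for both genes, with library E the lowest of the KO libraries, and without E the differences were 1.93 and 0.65. The adjusted p of Ccl3 stayed below 0.05 in all 16 alternatives and that of Ccl4 in 14, the exceptions being that without library A (0.0556) and that without a variance trend (0.068). Shares of cells at 10 or more gave the same direction in 3 of 3 KO libraries, but an exact two-sided permutation test over 6 libraries cannot go below p = 0.1, which is what Ccl3, Ccl4, Il2, Il13, Csf2, Xcl1 and Pdcd1 gave (Benjamini-Hochberg adjusted p = 0.243 over 17 genes). Of the other chemokine ligands, Ccl20, the ligand of CCR6, rose by 1.21 (limma adjusted p = 0.00529). With Ccl3 and Ccl4 it made 3 of 8 tested ligands called higher and 0 lower, where 4.54% and 3.85% of all genes were. Without library E 7 of 9 were higher, where 10.7% of all genes were. Because the clusters were built from the expression of Ccl3 and Ccl4, these ligand counts are descriptions and support no test.

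Many secreted cytokine genes were called. Of 29 listed, 19 passed the level filter, a mean of at least 5 ppm over the 6 libraries. Of these, 12 rose and 2 fell, where 4.54% and 3.85% of all tested genes did, with a median of 0.84 against -0.02 over all genes. The counts without library E were again 12 and 2, where 10.7% and 7.9% of all genes rose and fell. In the rest, 12 of 17 rose and 2 fell, where 11% and 13.6% of all genes did. Because rare genes such as Il13, Csf2, Il3 and Gzmb pass the filter through the KO libraries in which they are high, this count and those of the lists that follow are descriptions and support no test.

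Il13 had the largest rise of the cluster. It stood at 642, 39.1 and 685 ppm in D, E and F, against 4.53, 2.60 and 1.398 ppm in A, B and C. The KO libraries were all above the WT libraries but differed more than 10-fold among themselves, with E far below D and F. The log2 difference was 6.17 (SE 0.89, limma adjusted p = 0.00427), and without E it was 7.52. The WT values lay below the 5 ppm minimum, so Il13 passed the level filter through the KO libraries, and its adjusted p is a description. In single cells, 21.3%, 2.69% and 22.7% of D, E and F cells reached 10, against 0.573%, 0.261% and 0% of A, B and C cells.

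Il2, the main T cell growth factor, was high in every library of the cluster and rose further in KO. It stood at 1811, 1180.2 and 2683 ppm in D, E and F, against 588, 718 and 629 ppm in A, B and C. The groups did not overlap, and the log2 difference was 1.48 (SE 0.23, limma adjusted p = 0.00541, and 0.0526 without a variance trend). The median cell of the cluster held 37, 26 and 69 in D, E and F, against 12, 16 and 14 in A, B and C. In cluster 4 it stood at 1347 ± 240.4 ppm in KO and 947 ± 36.3 ppm in WT (SD, n = 3 each), so that in WT cluster 4 held more Il2 than cluster 3.

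Il3 and Csf2, nearby genes for haematopoietic growth factors, rose together. Both averaged below 5 ppm in WT and passed the level filter through the KO libraries, so their adjusted p-values are descriptions. Csf2, which encodes GM-CSF, stood at 121, 24.3 and 152 ppm in D, E and F, against 6.26, 1.03 and 1.73 ppm in A, B and C. Its log2 difference was 4.51 (SE 0.63, limma adjusted p = 0.00407), with no overlap and E again lowest of the KO libraries. In WT the gene rested on few cells, since 1 cell held 81.9% of the Csf2 of library A and 92.3% of that of library C. Il3 stood at 125, 5.85 and 44.4 ppm in D, E and F, against 1.28, 0.206 and 0.666 ppm in A, B and C. Its log2 difference was 4.35 (SE 0.81, limma adjusted p = 0.0117), and its adjusted p was below 0.05 in 10 of 16 alternatives and at most 0.0856 in the others, among them those without library B (0.056) and without C (0.0501).

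The other large rises were of genes of varied function. Inhba, the activin A subunit gene, rose by 3.28, the matricellular gene Cyr61 by 3.14 and the isoprenoid gene Idi2 by 3.12. Cd70, the ligand of CD27, rose by 3.00, and Il4i1, an amino acid oxidase gene, by 2.88. All of these averaged below 5 ppm in WT and passed the level filter through the KO libraries. Idi2 stood at 0.226, 0.274 and 0.0666 ppm in A, B and C, and Il4i1 at 0.0754, 0.137 and 1.26 ppm. Most of these values lay below the 1 ppm added before the log, so the sizes of both rises depend on that addition. Without a variance trend the limma adjusted p was 0.0526 for Inhba and 0.0534 for Cyr61, and for Cyr61 it was 0.0596 with means over cells. Penk, the proenkephalin gene, stood at 45.2, 42.8 and 50.3 ppm in D, E and F, against 4.83, 4.59 and 7.32 ppm in A, B and C. The KO libraries were alike and lay far above the WT libraries, and Penk rose by 2.86 on the log2 scale (SE 0.16, limma adjusted p = 2.81e-05). Gatm, which makes the precursor of creatine, rose by 2.83, Il1a by 2.72, and Gzmb, the granzyme B gene, by 2.67 (limma adjusted p = 0.0384). Gzmb passed in 9 of 15 alternatives, and its adjusted p was 0.164 without library A, 0.155 without B, 0.118 without D and 0.0915 without F. Its WT values were 0.377 and 0.343 ppm in A and B but 10.6 ppm in C, against 19.4, 14.3 and 16.9 ppm in D, E and F. A single cell held 62.2%, 53% and 15.7% of the Gzmb of D, E and F, and 61.25% of that of C.

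The largest falls were of genes at low levels. They were Ccnb1ip1 (-1.95), the tRNA methyltransferase gene Trmo (-1.59), the Ifi200 family genes Mndal (-1.48) and Ifi203 (-1.46), Hspbap1 (-1.35), the motor protein gene Myo6 (-1.34), Nsg2 (-1.31), the histone gene Hist1h2bj (-1.27), Ahr (-1.26), which encodes the aryl hydrocarbon receptor, Trib2 (-1.25), Hist1h1a (-1.23) and Hist1h3c (-1.10). Ahr stood at 9.89, 11.8 and 12.4 ppm in D, E and F, against 33.0, 24.9 and 28.1 ppm in A, B and C, with no overlap (SE 0.14, limma adjusted p = 0.0016). Of the other falls named, Trib2, Hist1h3c and Nsg2 were each lost without at least 1 library: without A their adjusted p was 0.0617, 0.0603 and 0.0617, without B that of Trib2 was 0.0514 and that of Hist1h3c 0.0746, and without C 0.0566 and 0.0963.

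**Figure D4:**
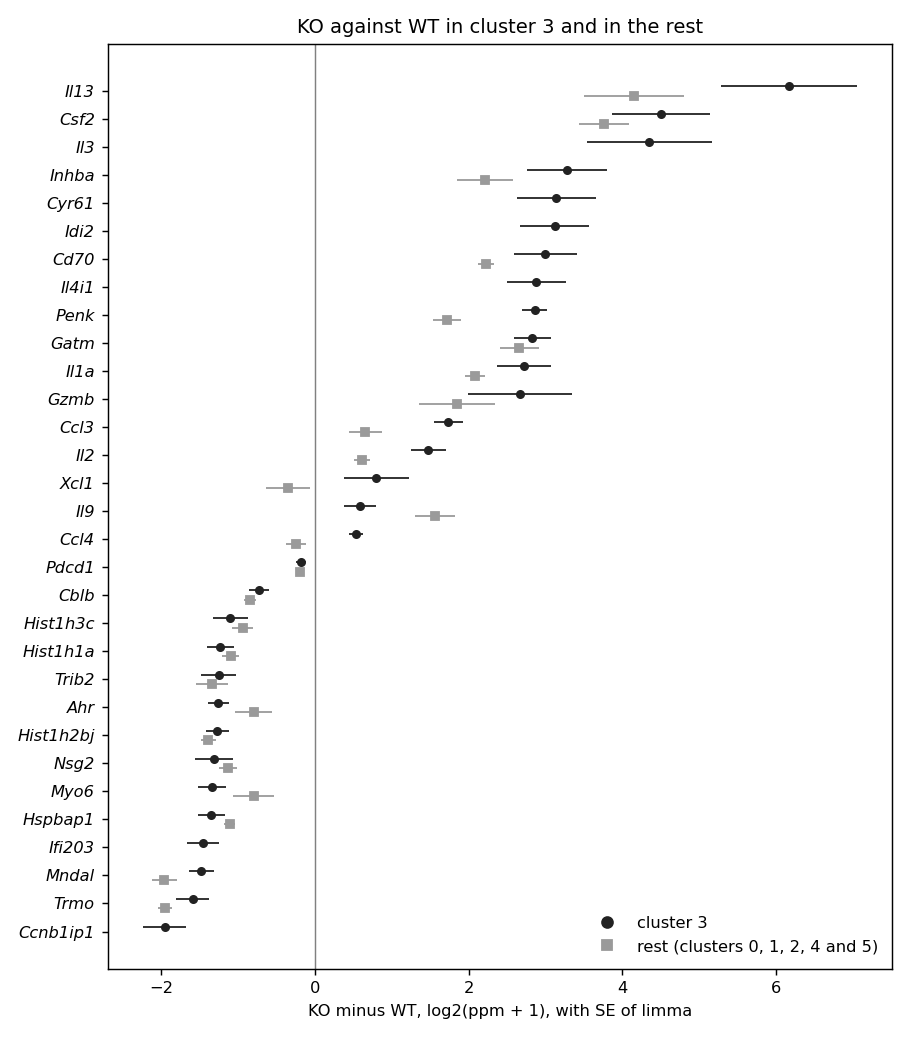
KO minus WT difference in log2(ppm + 1) with the SE of limma, in cluster 3 (black circles) and in the rest (grey squares), for the 12 largest rises, the 12 largest falls, the markers tested in both, Il2, Il9 and Cblb. A missing square means that the gene did not pass the level filter in the rest. Il13, Csf2, Inhba, Cd70, Penk, Gatm and Il1a lie far right in both, Ccl4 is at 0.53 in cluster 3 and at -0.24 in the rest, and the Il9 square, at 1.56, lies right of its circle.

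Pdcd1, Xcl1, Ifng and Il9 gave no call. Pdcd1 stood at 76.8 ± 2.76 ppm in KO and 87.2 ± 5.15 ppm in WT, with every KO library below every WT library, and the log2 change was -0.18 (SE 0.07, limma adjusted p = 0.147). Xcl1 differed by 0.80 (SE 0.42, limma adjusted p = 0.279), with groups that overlapped. More KO than WT cells held any Xcl1, at 20.3% ± 4.87 and 6.02% ± 1.32 (SD, n = 3 each; exact permutation p = 0.1, the smallest possible). Over cells within 20% of the median raw depth, Xcl1 differed by 2.17 (limma adjusted p = 0.0062). Ifng differed by 3.09 (SE 1.62, limma adjusted p = 0.28), and 89.6% of the Ifng of library F was in 1 cell. Il9 differed by 0.58 (SE 0.21, limma adjusted p = 0.125), with library E inside the WT range, and without E by 0.87 (limma adjusted p = 0.0016).

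Among regulators of activation, immediate early and activation factors rose in 13 of 27 tested genes and fell in 1, with a median of 0.31. The nuclear receptor gene Nr4a2 (2.10) and Ier3 (1.69) had the largest rises and Egr3 (-0.71) was the fall. NF-kB subunits and feedback genes rose in 7 of 21 and fell in 0, led by Traf1 (1.02) and Nfkbib (0.79). TNF family ligands rose in 5 of 11, led by Cd70 and Tnfsf8 (1.16), and Ltb (-0.63), a lymphotoxin gene, fell. Of genes of proximal T cell receptor signalling, the pathway CBL-B acts on, 3 of 33 rose and 4 fell, where 4.54% and 3.85% of all genes did, with the phosphatase gene Ubash3b (0.55) among the rises and Cblb and Ubash3a (-0.41) lowest. Inhibitory receptors and related genes were split, with Pdcd1lg2 (0.46) and Cd200 (0.41) higher and Nt5e (-1.09), Tox (-0.76) and 1 more of 10 lower. Without library E, 16 immediate early and activation factors rose and 5 fell, 8 NF-kB, 5 TNF family, 5 proximal receptor signalling and 4 inhibitory receptor genes rose, and 0, 1, 5 and 3 of these lists fell. Over all genes 10.7% rose and 7.9% fell in that fit, and the 5 of 33 proximal receptor signalling genes that rose, 15.2%, were near that share.

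Among lists of T helper types, set against 4.54% higher and 3.85% lower over all genes, 6 of 11 tested Th1 genes rose and 1 fell, a list that holds Ccl3 and Ccl4 itself, and Stat4 (1.33), which relays IL-12 signals, was among the rises, while the cathepsin W gene Ctsw (-0.69) fell. Of 7 Th2 genes 4 rose and 0 fell, Il13 and the chemokine receptor gene Ccr8 (0.69) leading. Of 15 Th9 genes 4 rose and 1 fell, with Ccl20 and Bhlhe40 (0.59) higher and Irf8 (-0.54) lower. Cytotoxic genes rose in 4 of 8, among them Gzmb and Nkg7 (1.26), and fell in 1. Of the cytokines that name Th2 cells, Il4 and Il5 were too low to test, at 0.399 to 9.88 ppm and at 0 to 12.2 ppm over the 6 libraries. Without library E, 7 Th1, 5 Th2, 9 of 16 Th9 and 6 cytotoxic genes were called higher, where 10.7% of all genes were.

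Falls led in genes of chromatin, respiration and ribosome production, set against 3.85% lower and 4.54% higher over all genes. Histone cluster genes fell in 10 of 13 tested members and rose in 0 (median -0.76), nuclear genes of the respiratory chain in 11 and 0 of 33 (median -0.15), with Ndufb2 (-0.36) and Cox7b (-0.36) lowest, and MYC and ribosome biogenesis genes in 7 and 0 of 25 (median -0.13), with Nme1 (-0.38) and Bop1 (-0.33) lowest. The unfolded protein response list had 4 of 18 members lower, Pdia3 (-0.43) and Sdf2l1 (-0.40) furthest, and none higher. None of 24 genes of G2 and mitosis was called in limma, and the largest of their differences was 0.22 for Nusap1. In the rest, the same lists had 10 of 13 histone, 15 of 33 respiratory chain, 7 of 25 MYC and 10 of 17 unfolded protein response genes lower, where 13.6% of all genes were. Without library E, 13 histone, 17 respiratory chain, 10 MYC and 4 unfolded protein response genes of cluster 3 were lower, where 7.9% of all genes were. In that fit 2 of 25 MYC, 2 of 18 unfolded protein response and 2 of 24 G2 and mitosis genes were higher, near the 10.7% of all genes that were.

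Further lists are set against the same shares of all genes. Apoptosis and p53 genes rose in 6 of 21 and fell in 0, led by the cell cycle inhibitor gene Cdkn1a (1.72) and Gadd45b (1.02). Annexin, galectin and S100 genes rose in 4 of 11 and fell in 0, led by Lgals1 (1.23), which encodes galectin 1, and S100a11 (0.76). Costimulatory and activation surface genes rose in 4 of 18 and fell in 2, with Tnfrsf9 (0.77), which encodes 4-1BB, and Cd5 (0.55) highest and Slamf6 (-0.37) and Icos (-0.36) lowest. Cytokine receptors rose in 4 of 14 and fell in 3, with Il12rb1 (0.66) and Il21r (0.56) highest and Tgfbr1 (-0.70) and Il6ra (-0.51) lowest. Glycolysis and hypoxia genes rose in 3 of 24. Without library E, 9 apoptosis and p53, 8 annexin, galectin and S100, 9 costimulatory, 5 cytokine receptor and 13 glycolysis and hypoxia genes rose, and 0, 0, 3, 3 and 0 fell, where 10.7% and 7.9% of all genes did. Tnf stood at 54.2, 82.3 and 90.4 ppm in D, E and F, against 44.7, 42.3 and 54.2 ppm in A, B and C, where library D was no higher than C. It was higher in KO by 0.65 (SE 0.17, limma adjusted p = 0.0435), which was lost in 9 alternatives, among them those without A (0.167), B (0.175), C (0.0746), E (0.0605) and F (0.115). Foxp3, the regulatory T cell factor, was low in the cluster, and 5.76% ± 3.65 of KO and 15.9% ± 3.45 of WT cells held it (SD, n = 3 each; exact permutation p = 0.1). Its level differed by -1.39 (limma adjusted p = 0.0923), and by -1.82 without library E (limma adjusted p = 0.0128).

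**Figure D5:**
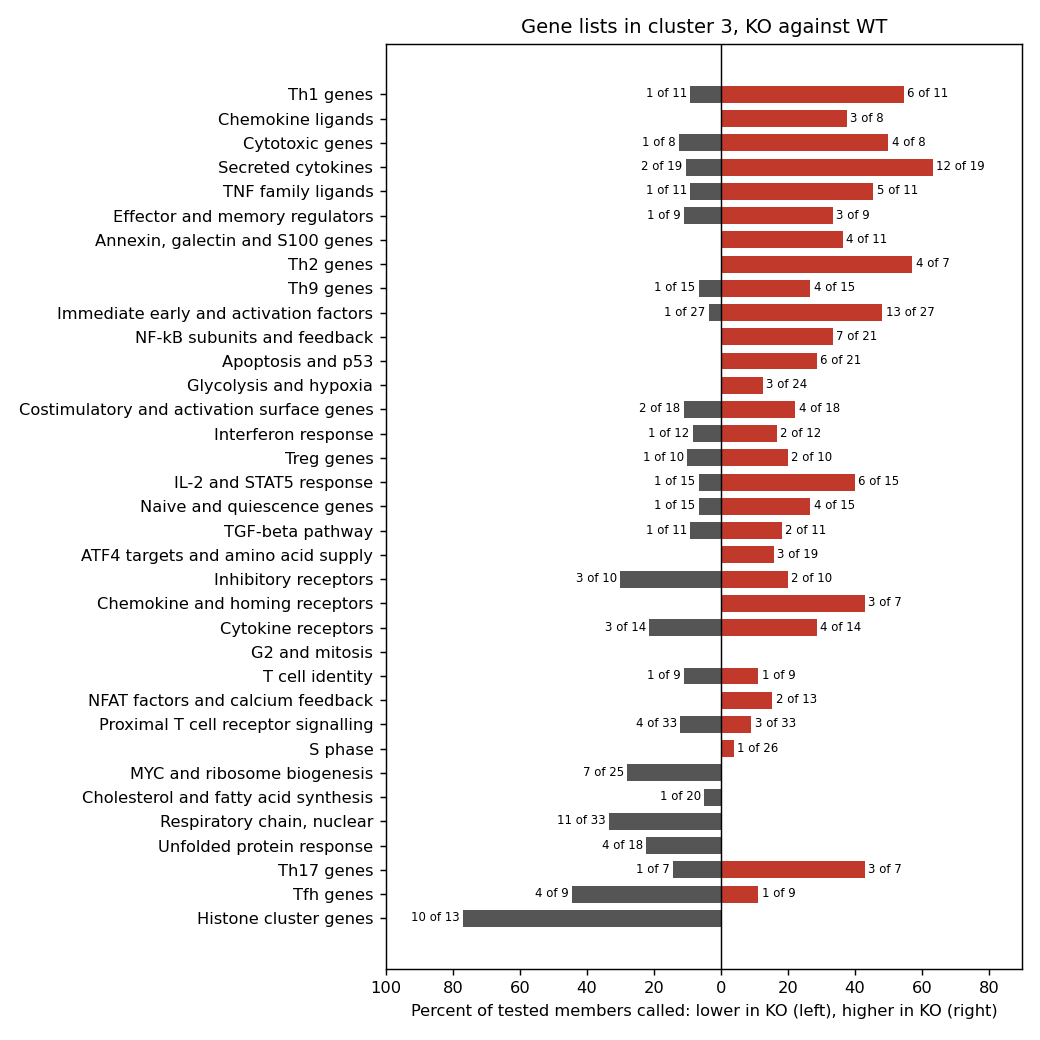
Share of the tested members of each gene list that were called higher (red, right) or lower (grey, left) in KO than in WT cells of cluster 3, in percent, for lists with at least 5 tested members, ordered by their median difference. Cytokines, Th1 and Th2 genes reach furthest right and histone genes furthest left. Over all 8393 tested genes 4.54% were higher and 3.85% lower.

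The KO effect in cluster 3 was next set against that in the rest of the same libraries. The rest had more calls, 935 higher (11%) and 1151 lower (13.6%) of 8476 tested genes (24.6%), over far more cells. A test of the difference itself, per library, called 5 of 8436 genes, which is 0.0593%, with 3 higher (0.0356%) and 2 lower (0.0237%) in limma with Benjamini-Hochberg adjustment, and 720 (8.53%) had an unadjusted p below 0.05. The fit made first, with a variance trend over the mean difference, called 0 genes, and the one given here was chosen after seeing that. With no level minimum, with no variance trend and with means over cells, 0 genes were called as well. Without library E 85 were called higher and 48 lower, without A 2 and 1, without B, C or F 0 and 1, and without D 3 and 3. The rest is a mixture of clusters whose shares may differ between libraries, and with these clusters weighted equally 14 genes were called higher and 6 lower.

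Of the 5, Il9 was called in the most alternatives. The clusters were built from the same values, and Il9 was highest in cluster 2, at 4006 ppm in KO and 2904 ppm in WT. Which cells entered cluster 3 or the rest thus depended on Il9 too, and the part of that in the difference was not tested. KO cells of the rest held 737 ± 236 ppm against 245 ± 59.1 ppm in WT cells, which is 1.56 on the log2 scale, while in cluster 3 KO cells held 79.7 ± 25.4 ppm and WT cells 51.3 ± 8.001 ppm, which is 0.58. The difference of the 2 effects was -0.98 (SE 0.10, limma adjusted p = 0.00412), and it was called without any 1 of the 6 libraries. Its range over 18 alternatives was -1.19 to -0.49, and it was called in 13 of them, but not in the fit made first (limma adjusted p = 0.897).

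Il3 had a larger KO effect in cluster 3, by 2.98 (SE 0.39, limma adjusted p = 0.0177). In the rest it stood at 6.24, 0.193 and 1.73 ppm in D, E and F, against 0.141, 0.040 and 0.139 ppm in A, B and C, below the level filter and, in WT, below the 1 ppm added before the log. The size of its difference thus depends on that addition, and it was 2.64 (limma adjusted p = 0.0757) with 0.1 ppm and 1.88 (0.156) with 10 ppm. It was called in 5 of 17 alternatives. Rgs1, a regulator of G protein signalling, differed by 0.50 (SE 0.07, limma adjusted p = 0.0201), with 83.9, 80.9 and 124 ppm in cluster 3 of D, E and F against 81.7, 64.8 and 75.1 ppm in A, B and C, and 47.6, 48.5 and 63.4 ppm in the rest of D, E and F against 61.7, 53.04 and 61.2 ppm in A, B and C. Akr1c18 differed by 1.43 (SE 0.18, limma adjusted p = 0.0171). It fell in the rest, where it stood at 19.2 ± 1.58 ppm in KO and 52.6 ± 2.51 ppm in WT. In cluster 3 it was low in both, at 6.93 ± 1.66 and 6.77 ± 1.13 ppm. Within cluster 5, which held the most of it, it stood at 607 ppm in KO and 641 ppm in WT. With the clusters of the rest weighted equally its difference was 0.38 (limma adjusted p = 0.527). Tmem176b, a membrane protein gene, differed by -0.57 (SE 0.08, limma adjusted p = 0.0201), at 27.955, 37.0 and 31.3 ppm in cluster 3 of D, E and F against 55.2, 59.1 and 58.4 ppm in A, B and C. With the clusters weighted equally it was -0.37 (limma adjusted p = 0.0511). Unlike Il9, these 4 genes each missed the threshold without library B (limma adjusted p from 0.127 to 0.253), without C (0.0736 to 0.158) and without F (0.0942 to 0.0996), and so did Rgs1 and Tmem176b without A (both 0.0701) and Il3 without D (0.0545).

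For the markers that rose in the cluster, the difference from the rest did not pass. It was 1.08 for Ccl3 (SE 0.26, limma adjusted p = 0.206), 0.78 for Ccl4 (SE 0.17, 0.163), 2.01 for Il13 (SE 0.44, 0.163) and 0.87 for Il2 (SE 0.16, 0.0893). For each of these 4 genes the KO libraries did not overlap with the WT libraries in this difference, as for 15.4% of all genes. Without library E, the adjusted p was 0.00257 for Ccl3, 0.00335 for Ccl4 and 0.00835 for Il13. With the clusters of the rest weighted equally it was 0.0284 for Ccl4 and 0.0483 for Ccl3. In the rest itself, Ccl4 differed by -0.24 (limma adjusted p = 0.215) and Ccl3 by 0.65 (limma adjusted p = 0.0587). By cluster, Ccl4 averaged 22.4, 46.9 and 39.6 ppm in KO cells of clusters 1, 2 and 5, against 37.0, 126 and 85.7 ppm in WT cells. In clusters 0 and 4 it averaged 35.3 and 159 ppm in KO, against 37.2 and 163 ppm in WT.

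Markers of other cell types were checked in the cluster by their summed level. The 9 T cell identity genes summed to between 2632 and 2885 ppm in KO and between 2707 and 2837 ppm in WT, with Cd5 called higher in KO (0.55) and Cd3e lower (-0.29). Of 6 natural killer markers in the table, Klra4 and Gzma were at 0 and the sum was 0.428 to 8.95 ppm in KO and 0.151 to 2.13 ppm in WT, the highest value being Fcer1g in library F, where 1 cell held 29 of 32. Of 8 mast cell and basophil markers, 5 were at 0, among them Cpa3 and Mcpt8, and the sum was at most 1.28 ppm in KO and 2.26 ppm in WT. Of 5 gamma-delta markers the sum was at most 0.814 ppm in KO and 5.12 ppm in WT. The B cell list summed to 31.8 to 37.2 ppm in KO and 27.3 to 30.0 ppm in WT, with Ms4a1 at 0. The CD8 list summed to 9.42 to 22.8 ppm in KO and 5.66 to 8.36 ppm in WT, nearly all of it Cd8b1, and Cd8a was at 0 to 0.407 ppm. The myeloid list summed to 115 to 402 ppm in KO and 85.3 to 93.7 ppm in WT, which was nearly all Cst3, a gene that most cluster 3 cells of every library held, while Csf1r was at 0 in all 3 KO libraries. Cst3 was higher in KO by 1.43 (limma adjusted p = 0.0333), and its part in the other differences was not tested.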

How the data were processed

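Single-cell RNA of 6 libraries was analysed from 1 table of 27258 cells and 17369 genes. The submitters' processing notes name Cell Ranger 3.0.2, Seurat 3.0.0 and mm10, without their roles. Per the file headers, each gene value the authors deposited is a score marked SCT. Each was taken to be a molecule count corrected by sctransform, which evens out depth between cells. The grounds were that name, the whole-number values and the nearly equal totals per cell, and no other source states the correction. These values were not fitted with a count model. Each cell's raw count of molecules (the lowest was 15006), mitochondrial percent (the highest was 15.15) and cluster are given as the authors deposited them. The values of each library were summed over cluster 3 and over the rest and scaled to 1000000. Tests were run on log2(ppm + 1), for genes that averaged 5 ppm or more over the libraries compared, with limma 3.58.1 in R 4.3.3, with a variance trend and Benjamini-Hochberg adjustment at 0.05, using only the 2 genotypes. The difference of KO effects was fitted per library. Its variance trend was first taken over the mean difference and then, after seeing that fit, over the mean level. Shares of cells were compared by exact two-sided permutation tests over libraries. Precision is given as the SD between libraries.

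Genes named are the given markers, Il9, Cblb, the largest changes among called genes (12 each way within the cluster, up to 10 each way for the difference of effects), the 15 highest and 10 lowest genes of the description, up to 4 members of a list, and 17 genes for shares of cells. Markers of other cell types, Nr4a2, Tnf and Foxp3 are named as list or share genes, and Ifng, Il4, Il5 and Il21 for their low levels. The members, lists and tests were chosen with earlier results of these data known. Doublets and free RNA were not treated. The scripts were tested on simulated data. Coordinates come from GENCODE M21 on GRCm38 (mm10), and sequences from RefSeq on GRCm38.p6, where 4 of 5 genes searched had an entry. Ccl4 is named only.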

Additional observations from a re-analysis of the deposited data

Results flagged for a closer look

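For 5 genes, the KO minus WT difference in cluster 3 was different from that in the rest of the same libraries by limma with Benjamini-Hochberg adjustment, in the fit chosen after one with another variance trend had called 0 genes. The clusters were built from the same values, and the part of that in these differences was not tested. Il9, the cytokine gene of Th9 cells, had a smaller KO effect in cluster 3, by -0.98 on the log2 scale. Il3, a growth factor gene, had a larger one, by 2.98, a size that depends on the 1 ppm added before the log, since its level in the rest was below the filter. Akr1c18, an aldo-keto reductase gene that fell in the rest, differed by 1.43, and by 0.38 (limma adjusted p = 0.527) with the clusters of the rest weighted equally. Within cluster 5, which held the most of it, it stood at 607 ppm in KO and 641 ppm in WT. Rgs1, a G protein signalling regulator, differed by 0.50. Tmem176b, a membrane protein gene that fell in both sets of cells, differed by -0.57, and by -0.37 (limma adjusted p = 0.0511) with the clusters weighted equally. Groups had 3 libraries each, so single libraries were not tested as outliers.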

How the results depend on the processing

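Ccl3, Il13, Csf2, Penk, Il1a, Ahr and Hist1h2bj kept their direction and passed the threshold in all 16 alternatives of the test within cluster 3. There the log2 difference of Ccl3 ranged from 1.22 to 1.93. Il13 and Csf2 passed the level filter through the KO libraries, so their adjusted p-values are descriptions. The number of genes called higher and lower within cluster 3, 381 and 323, was 219 and 156 with no level minimum and 118 and 57 with no variance trend, and it ranged from 125 to 899 and from 55 to 666 when 1 library was left out. Over cells within 20% of the median raw depth 177 were lower. The split was 423 and 222 with median-of-ratios scaling and 325 and 451 without each gene's highest cell. In the rest, 539 were higher with a minimum of 20 ppm, 1459 with none, and 406 to 1705 higher and 393 to 1380 lower with 1 library left out. The 3 higher and 2 lower genes of the difference of KO effects became 10 and 4 with median-of-ratios scaling, 8 and 5 with upper quartile scaling, 8 and 1 near the median depth, and 14 and 6 with clusters weighted equally. They became 0 and 0 with no minimum, with means over cells, with no variance trend and with the trend over the mean difference, 0 higher without the highest cell, and 0 to 85 and 1 to 48 with 1 library left out. The cause was not tested.

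Akr1c18 in cluster 3, at 0.02, turned to -0.0041 (upper quartile scaling), -0.034 (mean over cells), -0.87 (near the median depth) and -0.60 (without the highest cell), with -0.13 to 0.18 over left-out libraries. The Pdcd1 difference of effects, at 0.01, turned to -0.0053 (upper quartile scaling), -0.0061 (pseudocount 10 ppm), -0.078 (mean over cells), -0.073 (near the median depth) and -0.013 (without the highest cell), with -0.022 to 0.066 over left-out libraries. Neither was called. No paired analysis was possible because the library names in the table carry no replicate number. The median of all genes in cluster 3, at -0.02, was -0.02 with median-of-ratios and -0.05 with upper quartile scaling. The alternatives for the highest cell, for the trend and for lists without library E were chosen after seeing the data. Cluster 3 of library D had only 61 cells, which limits rare genes.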

Other observations

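Some gene groups of the cluster lie outside the accounts above. Chemokine and homing receptor genes rose in KO in 3 of 7 tested members and fell in 0, led by Gpr183 (1.01), an oxysterol receptor gene, and Ccr7 (0.79), the lymph node homing receptor gene. Of 12 interferon response genes 2 rose, Zbp1 (2.10) and Ly6e (1.03), and 1 fell, the GTPase gene Ifi47 (-0.51). Of 9 follicular helper genes 1 rose and 4 fell, and these overlap with the inhibitory receptor list. These calls are from limma with Benjamini-Hochberg adjustment, where 4.54% of all genes were higher and 3.85% lower. Il21 was at 0, 0.428 and 5.49 ppm in D, E and F, against 0.226, 0 and 0.133 ppm in A, B and C, too low to test. The ILC2 marker list summed to 133 to 176 ppm in KO and 104 to 111 ppm in WT cells of the cluster, against 161 to 210 ppm and 126 to 131 ppm in the rest. Of its 6 members in the table, 4 were below 5 ppm in every library. The list of NKT and innate-like T cells summed to 51.2 to 71.2 ppm in KO and 42.7 to 46.7 ppm in WT, against 39.1 to 48.2 ppm and 31.0 to 34.1 ppm in the rest. In the cluster this was nearly all Slamf1, while Zbtb16 and Klrb1c summed to 3 and 1 corrected counts and Klrb1b was at 0.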
